A study of Mus musculus with 5 samples.

Results

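SOX11-only intronic sites were SOX11-FLAG ChIP-seq peaks with their centre in an intron of a protein-coding gene and outside promoters. They overlapped no SOX4-FLAG peak. The cells were mouse primary keratinocytes from newborn pups, labelled with the mixed 129SvEx:C57BL/6 background of the floxed mice, which had been crossed with FVB/N mice carrying Krt14-Cre. Their genotype was Krt14-Cre;Sox11fl/fl;Sox4fl/fl (dcKO), in which a Cre driven by a basal keratinocyte promoter removes both endogenous genes. They were transduced with lentivirus carrying Sox11-Flag or Sox4-Flag under doxycycline control, and induced for a day, so both groups lacked endogenous SOX11 and SOX4 and made the tagged protein from a vector. Anti-FLAG ChIP gave 2 libraries for SOX11-FLAG and 2 for SOX4-FLAG, beside 1 control library, whose title names input while its antibody label names IgG, and the authors made 1 peak list for each factor from both of its replicates. The SOX11 list held 21270 peaks and the SOX4 list 2669. With 1 list per factor and no height, score or read count in either, no spread between replicates could be computed and the depth behind each peak is unknown. The tests below therefore compare sets of peaks within these lists, treating each peak as a unit, and not replicate libraries.

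The sites were selected on 3 values of the lists themselves. First, the opening 10% of the SOX11 list, 2127 rows, was left out, since list order was used as given. Second, 17939 of the remaining 19143 peaks overlapped no SOX4 peak by even 1 bp. Last, among those, 4172 had their centre in a promoter (reaching 1 kb before and 100 bp past a transcription start), 604 in an exon, 7198 between genes and 5965 in an intron. These 5965 peaks are the SOX11-only intronic sites, and they made up 28.0% of the SOX11 list and 84.0% of its 7104 intronic peaks. All but 2 were 258 bp wide. The label "SOX11-only" says that no SOX4 peak was listed there and not that SOX4 was absent, because the SOX4 list is far shorter. At the edges of the rule, the last SOX11-only intronic peak left out was row 2126, in intron 2 of Eaf2, and the first taken in was row 2128, in intron 6 of Synj2. The site nearest to a SOX4 peak, in intron 4 of Elf2, lay 35 bp from it, and the intronic peak kept out by the smallest overlap, 37 bp, lay in intron 1 of Zbtb41.

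SOX11 and SOX4 are SOXC transcription factors, which carry a high mobility group domain that binds the minor groove of DNA at a short sequence containing ATTGT or TTTGT and bends it. In the epidermis both are known from embryonic progenitors and from cells at wound edges. Introns, the first introns above all, often hold enhancers, and enhancers in keratinocytes are typically rich in binding sequences of AP-1 (dimers of FOS and JUN proteins), of the p63 protein, and of TEAD factors, the DNA-binding partners of YAP and TAZ in the Hippo pathway.

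The 4 classes of site, set by the motifs they held, are shown first because the results below turn on their shares. The SOX motif was searched as CATTGT or CTTTGT followed by 2 pyrimidines, on both strands, and the AP-1 motif as TGAGTCA or TGACTCA, which read as each other on the opposite strand. The site earliest in the list in each class, whole, is given 5′ to 3′ on the plus strand of mm9, with SOX and AP-1 matches in capitals. The first held both motifs and lay in intron 1 of Lgr6, a gene for a stem cell receptor of the skin. The next, in intron 6 of Synj2, a phosphoinositide phosphatase gene, held a SOX match alone, in reverse orientation. The one after it, in intron 7 of Atp6v1e1, a proton pump subunit gene, held 2 AP-1 matches and no SOX match. The last, in intron 1 of Mxi1, a gene for an antagonist of MYC, held neither.
Lgr6, chr1:136974180-136974437, plus strand: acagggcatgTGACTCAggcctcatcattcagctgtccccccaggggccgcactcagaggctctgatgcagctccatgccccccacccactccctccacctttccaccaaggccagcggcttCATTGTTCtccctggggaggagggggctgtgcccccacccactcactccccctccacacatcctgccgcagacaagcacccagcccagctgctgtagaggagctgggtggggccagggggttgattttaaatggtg
Synj2, chr17:6006169-6006426, plus strand: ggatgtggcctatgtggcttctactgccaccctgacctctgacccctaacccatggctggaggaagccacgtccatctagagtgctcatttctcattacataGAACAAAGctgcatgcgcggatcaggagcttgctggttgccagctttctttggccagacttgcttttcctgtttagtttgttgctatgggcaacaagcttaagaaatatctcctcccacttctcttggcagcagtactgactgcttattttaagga
Atp6v1e1, chr6:120748178-120748435, plus strand: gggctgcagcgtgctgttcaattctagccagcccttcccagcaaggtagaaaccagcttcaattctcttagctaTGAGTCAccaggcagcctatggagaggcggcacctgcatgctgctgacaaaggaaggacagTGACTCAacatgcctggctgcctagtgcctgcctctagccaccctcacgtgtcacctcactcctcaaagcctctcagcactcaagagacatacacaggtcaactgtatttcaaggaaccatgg
Mxi1, chr19:53385541-53385798, plus strand: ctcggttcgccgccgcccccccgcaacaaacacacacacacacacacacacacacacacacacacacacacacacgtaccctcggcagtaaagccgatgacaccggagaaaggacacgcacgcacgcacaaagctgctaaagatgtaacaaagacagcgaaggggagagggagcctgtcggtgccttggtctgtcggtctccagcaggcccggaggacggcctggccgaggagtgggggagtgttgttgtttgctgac

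The next 4 sites with both motifs are given as the stretch that joins the closest SOX and AP-1 match, with 10 bases on each side where the peak allowed it because the spacing of such pairs is measured below. The distance between the middles of the 2 motifs was 9.5 bp in Gdpd5, 68.5 bp in Gnai2, 112.5 bp in Ppp2r5e and 78.5 bp in Rapgef1, and the motifs came in either order.
Gdpd5, chr7:106558461-106558497, plus strand: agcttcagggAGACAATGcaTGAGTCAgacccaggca
Gnai2, chr9:107526993-107527088, plus strand: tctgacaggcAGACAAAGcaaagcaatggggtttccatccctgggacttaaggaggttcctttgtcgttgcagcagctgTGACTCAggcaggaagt
Ppp2r5e, chr12:76645350-76645489, plus strand: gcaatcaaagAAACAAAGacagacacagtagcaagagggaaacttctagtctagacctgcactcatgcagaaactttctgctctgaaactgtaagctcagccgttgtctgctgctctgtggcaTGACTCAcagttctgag
Rapgef1, chr2:29572499-29572604, plus strand: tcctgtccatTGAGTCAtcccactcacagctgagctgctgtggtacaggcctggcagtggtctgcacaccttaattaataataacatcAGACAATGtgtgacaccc

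The SOX motif was present in 2079 of the 5965 sites, 34.9% (95% Wilson interval 33.7 to 36.1). In windows of the same width moved 2 kb downstream of each site it was present in 11.01% (10.2 to 11.8), and in 178824 intronic windows set every 5 kb along the genome in 12.3%. The odds ratio against the downstream windows was 4.32 (3.92 to 4.76, two-sided Fisher's exact test, p adjusted over 20 motifs = 9.41e-218). The AP-1 motif was about as frequent in the sites, at 34.4% (33.2 to 35.6), but rarer around them, at 4.84% of the downstream windows and 4.24% of the intronic windows, which gave an odds ratio of 10.3 (9.05 to 11.7, adjusted p below 1e-300). Only 32 of the downstream windows overlapped another SOX11 peak. With these words, the shares of sites with SOX and with AP-1 were close, but that depends on the motif and the window. The 6-base SOX core, CATTGT or CTTTGT alone, was in 62.4% of the sites, and within 50 bp of the peak centre the full motifs were in 27.1% for SOX and 18.8% for AP-1.

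Most sites with a motif held a single copy. There were 1834 sites with 1 SOX match, 220 with 2 and 25 with 3 or more, and 1775 with 1 AP-1 match, 257 with 2 and 20 with 3 or more. Among the 8 possible SOX words, CTTTGTTC led with 521 sites, 8.73%, against 1.38% of downstream windows, followed by CTTTGTCT with 415 and CTTTGTCC with 359. CTTTGTTT, the word most frequent in the downstream windows at 2.95%, reached only 5.99% of the sites. The words that begin CATTGT were held by fewer sites, from 137 for CATTGTCC to 191 for CATTGTTC.

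All 8-base words were then counted, with no motif chosen. The 6 words that led the sites against their downstream windows each held an AP-1 match and 1 further base that was C, G or T, led by TGAGTCAC (counted with its complement GTGACTCA) in 13.8% of sites and 1.48% of windows, and TGACTCAG in 12.5% and 1.38%. The other words of this kind, TGACTCAA in 3.27% and TGAGTCAA in 2.40% of sites, were not among the leaders. The next word was CTTTGTTC. CCTTTGTT (7.12% and 1.56%), GAGTCACT (5.58% and 0.838%) and GCCTTTGT (6.00% and 1.11%) completed the leading 10. In the 846 intronic peaks that did overlap a SOX4 peak the share of CTTTGTTC was 28.8%, and that of TGAGTCAC 10.99%.

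All other motifs of the panel of 20 except GATA and POU were also more frequent in the sites than in the downstream windows. The TEAD motif AGGAATG was in 12.9% of sites and 5.30% of windows (odds ratio 2.65, 2.31 to 3.04, adjusted p = 1.04e-47, Fisher's exact test). The paired sequence bound by the p53 family, to which p63, the master regulator of stratified epithelia, belongs, was in 14.1% and 7.71%. The GC box GGGCGGG, bound by SP and KLF factors, was in 6.96% and 2.18%, and the full NFI site in 2.31% and 0.537%. The antioxidant response element (ARE), bound by NRF2 with small MAF proteins, was in 16.1% and 8.20%, and its core shares letters with AP-1 matches that are followed by GC. RUNX (8.79% and 6.47%) and the ZEB E-box CAGGTG (21.9% and 18.2%) differed least among those named here. GATA (3.57% and 3.74%, adjusted p = 0.661) and POU (1.16% and 1.51%, adjusted p = 0.116) did not pass Fisher's exact test. The sites were also richer in G and C, with a median of 49.6% against 45.3% in the downstream windows and 42.6% in the intronic windows, and the part of composition in these shares was not tested.

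**Figure D1:**
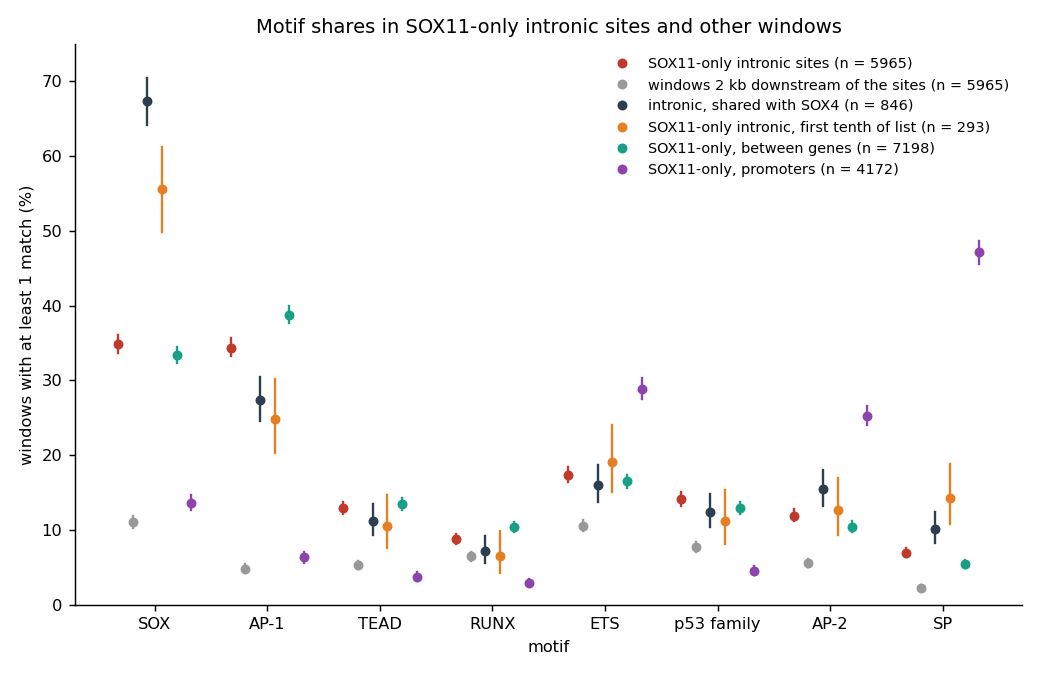
Share of peaks or windows with at least 1 match (vertical axis, percent) for 8 motifs (horizontal axis), with points for shares and bars for 95% Wilson intervals, in the SOX11-only intronic sites and 5 other sets. The sites sit at 34.9% for SOX and 34.4% for AP-1, where the intronic peaks shared with SOX4 sit at 67.4% and 27.4% and the downstream windows at 11.01% and 4.84%.

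Compared with the intronic peaks shared with SOX4, the sites were poorer in SOX and richer in AP-1. The SOX motif was in 67.4% (64.1 to 70.5) of the 846 shared peaks, so the odds ratio of the sites against them was 0.259 (0.222 to 0.302, Fisher's exact test, p adjusted over 80 tests = 2.02e-70). For AP-1 the shared peaks stood at 27.4% (24.5 to 30.5) and the odds ratio was 1.39 (1.18 to 1.63, Fisher's exact test, adjusted p = 0.00017). The 2 sets differ in list position, since 438 of the shared peaks came from the opening 10% of the list and no site did. Against the 408 shared peaks below the opening 10% alone, the SOX share was 58.1% (odds ratio 0.386, Fisher's exact test, p adjusted over 4 motifs = 1.49e-19) and the AP-1 share 25.5% (odds ratio 1.53, adjusted p = 0.000372). Those peaks still lay early, with 167 of them in rows 2128 to 4254, so the comparison was also made within 9 bins of list position. The pooled odds ratio within bins was 0.509 for SOX (0.412 to 0.629, Mantel-Haenszel test, not an exact test, p = 2.19e-10), nearer to 1 than the 0.259 without bins, and 1.42 for AP-1 (1.12 to 1.79, p = 0.00378, not an exact test). The SOX share was lower in the sites in all 9 bins, from 51.2% against 64.1% in rows 2128 to 4254 to 32.8% against 35.3% in rows 12763 to 14889. The AP-1 share was higher in the sites in 8 bins. It was lower in 1, rows 4255 to 6381, with 33.9% against 38.4% of 86 shared peaks. From row 12763 on, the bins held only 11 to 17 shared peaks each, and the SOX share of those peaks ranged from 35.3% to 72.7%. TEAD did not pass in either comparison, with 12.9% of the sites against 11.2% of all shared peaks (odds ratio 1.17, 0.934 to 1.47, Fisher's exact test, adjusted p = 0.306).

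The sites resembled the SOX11-only peaks between genes far more than those in promoters. The SOX share was 33.4% in the 7198 intergenic peaks (odds ratio 1.07, 0.993 to 1.15, Fisher's exact test, adjusted p = 0.158), and AP-1 was somewhat less frequent in introns than between genes, where it reached 38.8% (odds ratio 0.827, 0.770 to 0.888, adjusted p = 6.51e-07). In the 4172 promoter peaks SOX was in 13.7%, AP-1 in 6.33% and TEAD in 3.76%, while the GC box was in 47.2% and ETS sequences in 28.9%, against 17.4% for ETS in the sites. All 5 of these differences from promoters passed Fisher's exact test, with adjusted p-values from below 1e-300 to 2.17e-41. The promoter peaks were also richer in G and C, with a median of 64.7% against 49.6% in the sites. The part of composition in these differences was not tested. The 293 SOX11-only intronic peaks of the opening 10% held the SOX motif in 55.6% and the 6-base SOX core in 87.4%, against 62.4% for the core in the sites (odds ratio 0.240, Fisher's exact test, adjusted p = 8.21e-20). They held AP-1 in 24.9%, less often than the sites (odds ratio of the sites 1.58, 1.21 to 2.07, Fisher's exact test, adjusted p = 0.00232), though they too overlapped no SOX4 peak.

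The SOX and AP-1 motifs were found together in 571 sites, 9.57%. A further 1508 (25.3%) held SOX alone, 1481 (24.8%) AP-1 alone and 2405 (40.3%) neither. The product of the separate shares is 11.99%, so the motifs met in fewer sites than that, with an odds ratio of 0.615 (0.547 to 0.691, two-sided Fisher's exact test, p = 9.75e-17). In the shared intronic peaks the corresponding odds ratio was 1.14 (0.821 to 1.57, exact test, p = 0.46), and in the downstream windows it was 0.861 (0.578 to 1.28, p = 0.501). SOX11-only peaks between genes gave 0.730 (0.659 to 0.809, exact test, p = 1.4e-09). In SOX11-only promoter peaks it was 1.56 (1.14 to 2.15, exact test, p = 0.00921), and in the 293 SOX11-only intronic peaks of the opening 10%, which also overlapped no SOX4 peak, it was 1.03 (0.604 to 1.75, exact test, p = 1). The ratio of the odds ratios of the sites and all shared peaks was 0.541 (0.383 to 0.765, Woolf test, a large-sample and not an exact test, p = 0.000497). Against the 408 shared peaks below the opening 10% the ratio was 0.628 (0.395 to 1.001, same test, not exact, p = 0.0505), which did not pass, so a difference from the shared peaks was not shown once the opening 10% of the list was left out of both sets.

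The SOX matches were concentrated at the middle of the peaks, and the AP-1 matches were spread more widely around it. SOX matches reached 4.15 per kb within 25 bp of the peak centre and 1.68 per kb in the next 25 bp, and were between 0.382 and 0.510 per kb at all distances from 125 to 500 bp. AP-1 matches were at 2.01 per kb within 25 bp, at a like 2.14 per kb from 25 to 50 bp (601 and 639 matches), and still 1.27 per kb from 75 to 100 bp. The median distance of the closest match from the centre was 19 bp for SOX, 43.5 bp for AP-1 and 51 bp for TEAD. In the shared peaks the SOX matches were nearer still, with a median of 10 bp and 10.6 matches per kb within 25 bp, whereas the AP-1 median was 49.5 bp. Within the 571 sites with both, the closest pair was a median of 55.5 bp apart (quartiles 32.5 and 93.5 bp), and no 5-bp step of distance held more than 40 sites. AP-1 lay on the pyrimidine side of the SOX match in 291 of them, 51.0% (46.9 to 55.0, exact binomial test against equal sides, p = 0.676).

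**Figure D2:**
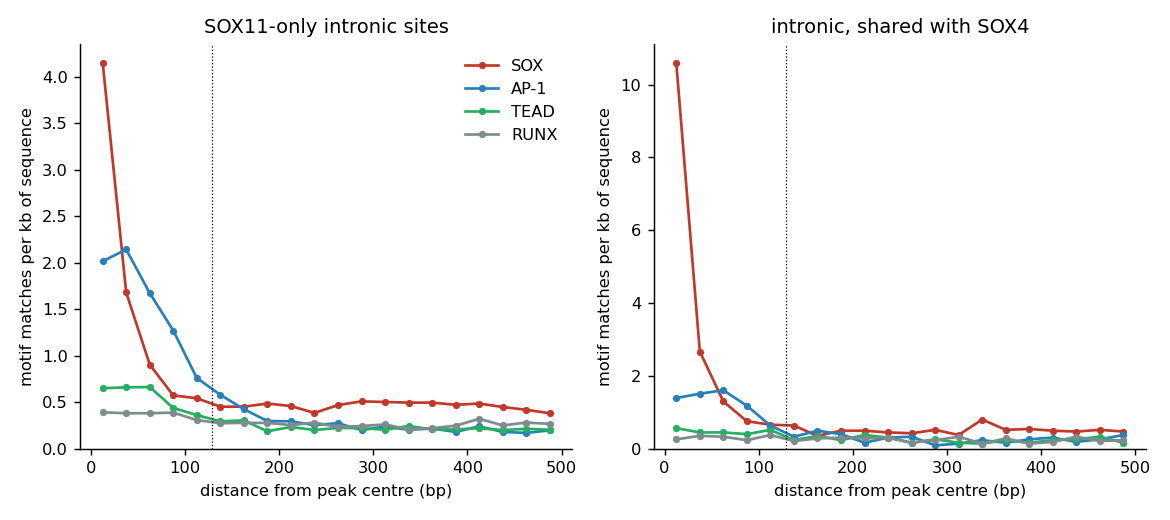
Matches per kb of sequence (vertical axis, with its own scale in each panel) against distance from the peak centre in steps of 25 bp (horizontal axis) for SOX, AP-1, TEAD and RUNX, in the SOX11-only intronic sites (left) and the intronic peaks shared with SOX4 (right). The dotted line marks the edge of a 258-bp peak, and SOX matches in the sites fall from 4.15 per kb at the centre while AP-1 matches stay at 2.01 and 2.14 per kb out to 50 bp.

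The 2405 sites with neither motif held other motifs of the panel. Of them, 1050 (43.7%) held the 6-base SOX core without the 2 pyrimidines. Among their downstream windows that likewise held neither full motif, 2020 in all, the core was in 22.1% (odds ratio 2.73, 2.39 to 3.11, Fisher's exact test, p = 2.66e-52). TEAD was in 8.06% (6.09 to 10.6) of the sites with both motifs and in 3.85% of their downstream windows. In the sites with neither motif it was in 15.01% (13.6 to 16.5), against 5.66% of all their windows (odds ratio 2.95, Fisher's exact test, adjusted p = 3.69e-26). The GC box was in 9.81% against 2.16% (odds ratio 4.92, Fisher's exact test, adjusted p = 1.57e-29) and the p53 family sequence in 17.6% against 7.61% (odds ratio 2.59, adjusted p = 4.71e-25). The other classes lay above their windows as well, which was not tested. In the sites with SOX alone TEAD was in 12.4% (5.24% of their windows). The GC box was in 7.76% (2.06%) of them and the p53 family sequence in 12.8% (7.825%). In the sites with AP-1 alone the shares were 11.9% (5.33%) for TEAD, 3.17% (2.30%) for the GC box and 11.2% (7.765%) for the p53 family. The leading 8-base words of the sites with neither motif were CCTTTGTG, which contains the SOX core, in 7.28% of sites and 0.998% of windows, then GGAATGTG and AGGAATGT, both TEAD words, in 6.74% and 6.86%. GGCGGGGC and GGGCGGGG followed, and then TGATTCAT in 4.78% of sites and 0.748% of windows.

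Along the list the SOX share fell and the AP-1 share did not. Because the list position was part of the rule, these values are given as a description. In the first of 10 equal bins of the sites (rows 2128 to 4158) SOX was in 51.9% (47.9 to 55.9), in the next 40.4% and then 37.4%, and in the last 7 bins it stayed between 28.9% and 32.4%. The AP-1 share was lowest in the first bin, 29.8% (26.3 to 33.6), and highest in the last, 37.2% (33.5 to 41.2). The TEAD share ranged from 10.4% to 14.4% with no order, and the GC box went from 10.6% in the first bin to 4.19% in the last. Even in the last bin the SOX share of 31.9% lay above the 11.01% of the downstream windows of all the sites.

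**Figure D3:**
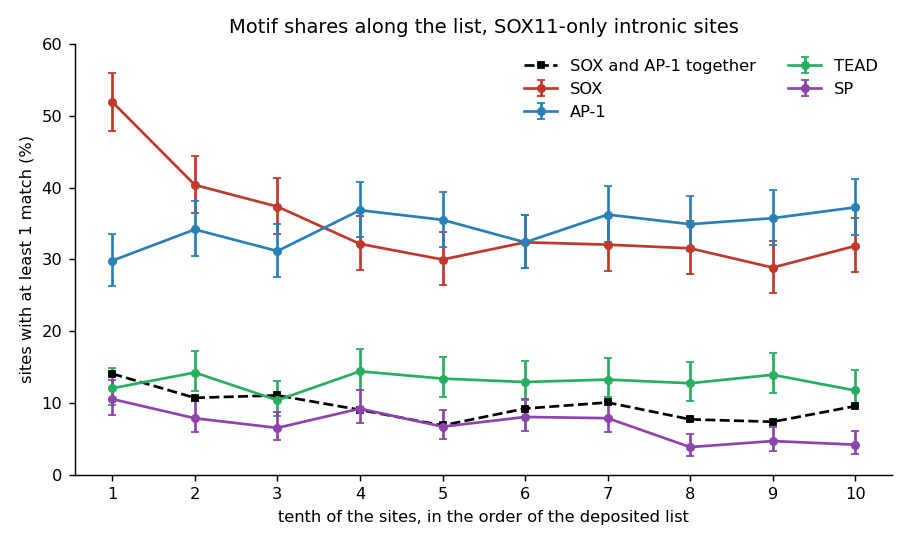
Share of sites with a motif (vertical axis, percent, bars for 95% Wilson intervals) in 10 successive bins of the 5965 SOX11-only intronic sites in list order (horizontal axis). SOX falls from 51.9% to 31.9% and AP-1 goes from 29.8% to 37.2%, while the share with both (dashed) goes from 14.1% to 9.56%.

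The SOX match had an orientation relative to the gene, but no more than intronic sequence in general. Among 1810 sites with 1 SOX match and hosts on 1 strand only, the CATTGT or CTTTGT strand was the coding strand in 1055, 58.3% (56.0 to 60.5, exact binomial test against equal strands, p = 1.87e-12). In the downstream windows it was 59.1% (odds ratio 0.966, 0.796 to 1.17, Fisher's exact test, p = 0.73) and in the intronic windows 58.1% (odds ratio 1.01, 0.913 to 1.11, p = 0.901). On the coding strand T made up 52.9% of the A and T bases of the sites and 52.4% of those of the intronic windows. The lean to the coding strand was therefore of the size found in introns without regard to the peaks. In the shared intronic peaks the share was 63.7% (odds ratio of the sites against them 0.795, 0.645 to 0.980, Fisher's exact test, p = 0.0317, not adjusted).

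Compared with the intronic windows, the sites lay nearer to the 5′ end of their genes. In the transcript with the longest span, the start was a median of 35.5 kb away for the sites and 60.8 kb for the windows. Counting introns in the transcript with the longest span, 2321 sites (38.9%, 37.7 to 40.2) lay in a first intron, against 26.9% of the intronic windows, and 832 (13.9%) in intron 10 or later, against 19.8%. The shared intronic peaks were in a first intron more often than the sites, at 45.6% (odds ratio of the sites 0.759, 0.657 to 0.877, two-sided Fisher's exact test, p = 0.000231), as were the SOX11-only intronic peaks of the opening 10% of the list, at 50.2% (odds ratio 0.633, p = 0.000142). Of the shared peaks, 438 came from the opening 10% of the list and no site did. The first intron comparison with them was not made at like list positions. For the sites, the nearest transcription start was a median of 13.6 kb away, against 23.0 kb for the intronic windows. Within 5 kb of a start lay 27.5% of the sites and 17.7% of the windows, and beyond 100 kb lay 6.62% and 16.8%. The median intron that held a site was 22.8 kb long, against 27.5 kb for the windows. The promoter rule removed peaks up to 100 bp past a start, so the nearest distances here were bounded by it. Sites shortly past a start were kept. With promoters of 1 kb to each side of a start, 5306 of the 5965 sites were left.

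The motifs differed with this distance. Sites within 5 kb of a start held AP-1 in 24.9% (22.9 to 27.1) and those from 5 to 20 kb in 37.7% (35.6 to 39.9), with 35.2% to 39.9% further out. SOX varied less and was highest within 5 kb, at 38.6% (36.3 to 41.0). It was in 33.0% (31.0 to 35.2) from 5 to 20 kb and in 32.2% to 36.7% further out. The GC box went the other way from AP-1, from 15.1% within 5 kb to 2.03% beyond 100 kb. Sites in first introns held AP-1 in 28.0% against 38.5% in later introns (odds ratio 0.622, 0.556 to 0.696, Fisher's exact test, p adjusted over 4 motifs = 1.46e-16) and the GC box in 10.7% against 4.56% (odds ratio 2.52, adjusted p = 1.38e-18). For SOX the shares were 36.4% and 33.9% (odds ratio 1.12, 0.9996 to 1.24, Fisher's exact test, adjusted p = 0.0512). The median distance to a start was 16.8 kb for sites with AP-1 alone and 10.9 kb for those with SOX alone.

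**Figure D4:**
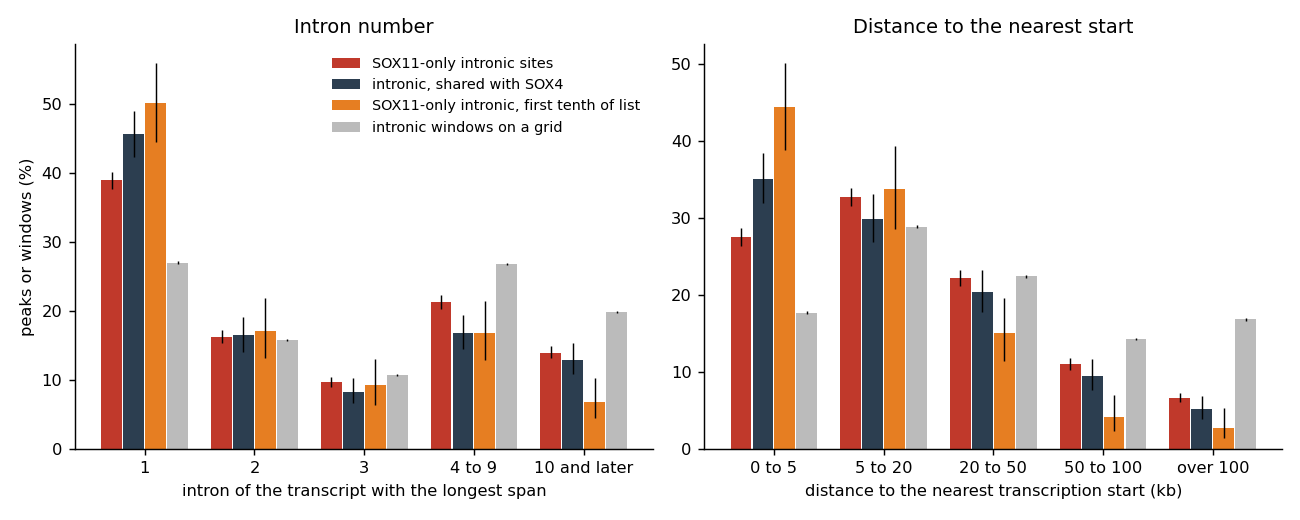
Share of peaks or windows (vertical axes, percent, bars start at 0, black lines for 95% Wilson intervals) by intron number (left) and by distance to the nearest transcription start (right). The SOX11-only intronic sites are in first introns in 38.9% and within 5 kb of a start in 27.5%, above the 26.9% and 17.7% of intronic windows and below the intronic peaks shared with SOX4.

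The sites were spread over many genes. They lay in 4727 introns, of which 3953 (83.6%) held 1 site and 232 (4.91%) held 3 or more. By gene, 2368 of the hosts held 1 site and 660 held 2. Of 19409 protein-coding genes with an intron, 3592 hosted a site, which is 18.5%, and 564 hosted at least 3, which is 2.91%. Hosting went with length. The median host gene had 58.3 kb of intronic sequence and the median gene without a site 12.1 kb, and the share of genes with a site went from 2.5% at 2 to 5 kb of intron to 58.1% above 200 kb, while the sites per Mb of intron stayed between 7.08 and 9.06 from 2 to 200 kb. Above 200 kb of intron there were 4.27 sites per Mb, and below 2 kb there were 12.97. A SOX11 peak in a promoter of the same gene was found for 31.6% of the host genes and 24.7% of the others. The direction of this difference went with length, which was not tested. In the shortest bins it rested on few host genes. Below 2 kb the shares were 0.885% of 339 genes with a promoter peak and 1.27% of 1810 without. At 2 to 5 kb they were 1.46% of 480 and 2.76% of 1920. Below 20 kb of intron, genes with a promoter peak hosted a site less often than those without in all 4 length bins (for example 9.97% against 12.9% at 10 to 20 kb), at 20 to 50 kb the shares were 21.9% and 21.8%, and above 50 kb they were higher with a promoter peak in each bin, as in 60.7% against 43.0% at 100 to 200 kb. The nearest start belonged to a gene other than the host for 780 sites, 13.1%.

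Most sites had no close neighbour. The gap to the nearest other SOX11 peak had a median of 18.04 kb, and 13.2% of the sites had one within 5 kb. The nearest SOX4 peak was a median of 172.1 kb away, with 1.38% of sites within 5 kb of one, and the site farthest from a SOX4 peak, in 4930453N24Rik on chromosome 16, was 8806302 bp from it. Of the introns with a site, 222 also held a shared peak. By chromosome there were from 5.28 sites per Mb of intron on chromosome 14 to 8.92 on chromosome 11, but only 1.78 on the X chromosome, with 73 sites in 41.0 Mb. The shared intronic peaks were also sparser there, at 0.268 per Mb against 0.979 on the autosomes.

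Gm20388 held 65 sites, Fgfr2 (a fibroblast growth factor receptor) 29 and Arfip1 15, but in this annotation each of these models runs across other genes. Gm20388 spans 4.43 Mb and 72 other protein-coding genes, all 65 of its sites had a nearest start of another gene, and 36 had no other host. Fgfr2 spans 3.01 Mb here, with 31 genes inside it, and 26 of its 29 sites were nearer to the start of another gene. Which of the overlapping genes a site belongs to cannot be told apart from its position. Macrod2 (14 sites in 1982 kb of intron), Auts2 (11 in 1090 kb), Cacna2d3 (10 in 805.9 kb) and Erc2 (10 in 849.7 kb) followed. Pard3, which encodes a polarity protein of cell junctions, held 12 sites in 533.9 kb, of which 8 had the SOX motif and 1 had AP-1. Camta1, among the genes the study lists as direct targets, held 12 in 787 kb, of which 4 had SOX and 8 AP-1, beside 2 intronic shared peaks. St3gal3, a sialyltransferase gene, held 10 in 199993 bp, or 50 per Mb.

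**Figure D5:**
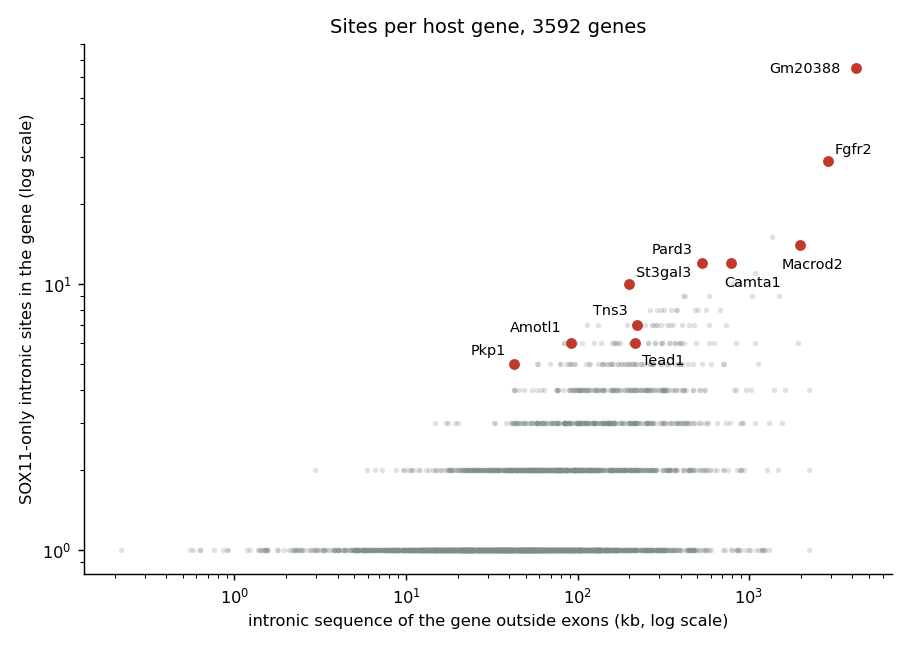
Number of SOX11-only intronic sites (vertical axis, log scale) against intronic sequence outside exons in kb (horizontal axis, log scale) for the 3592 host genes, 1 point a gene, with 10 genes of the text in red. Gm20388 with 65 sites and Fgfr2 with 29 are models that run across other genes, while Pkp1 holds 5 sites in 42.8 kb and Amotl1 holds 6 in 91.6 kb.

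Among genes with at least 5 sites, Pkp1 was the densest, and Uck2, Znrf1 and Pard6g were among the leading 5. Pkp1, which encodes plakophilin 1, a desmosome plaque protein, held 5 sites in 42.8 kb of intron, 116.9 per Mb. These were at chr1:137780146-137780403, chr1:137787788-137788045, chr1:137796763-137797020, chr1:137803393-137803650 and chr1:137813288-137813545 (mm9), in introns 6, 2, 2, 2 and 1, of which 3 held SOX and 1 AP-1. Uck2, a uridine kinase gene, held 5 (86.6 per Mb), Znrf1, a ubiquitin ligase gene, 6 (72.4 per Mb) and Pard6g, a further polarity gene, 5 (71.8 per Mb). The introns with most sites, apart from those of the 3 long models, included intron 1 of Cadm1 with 8 and single introns of Ank3, Rad51l1, Maml3 and Auts2 with 7 each.

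Gene lists for keratinocyte functions were then counted against all genes, where 18.5% hosted a site and 6.52 sites fell per Mb of intron. These counts are descriptive, since the lists were drawn up with earlier results known and their genes are longer than most. Of all genes, 21.85% hosted a site at 20 to 50 kb of intron, 38.5% at 50 to 100 kb and 48.4% at 100 to 200 kb. The median intron length was, for example, 72.9 kb in the Hippo list and 52.5 kb in the EGF receptor and MAP kinase list. The host counts of the lists were not compared at like length. Hippo pathway genes had the highest density, 17.9 sites per Mb, with a site in 18 of 29 and 3 or more in 6. Tead1, a TEAD factor itself, held 6 sites and 3 shared peaks, Amotl1, which binds YAP at junctions, held 6 in 91.6 kb, Wwc1 and Wwc2, upstream activators of the LATS kinases, 4 each, and Wwtr1, which encodes TAZ, 3. Focal adhesion and integrin genes came next at 15.5 per Mb, with a site in 15 of 30. Lpp held 9, the tensin genes Tns3 and Tns1 held 7 and 6, Itgb6, the integrin beta 6 subunit gene, held 5 in 117 kb, and Pxn, which encodes paxillin, held 3 in 41.1 kb. AP-1 and related bZIP genes had 15.1 per Mb, yet only 5 of 16 hosted a site, and Bach2 alone held 7 of their 12, 5 of them with an AP-1 match.

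Of the actin and filopodia genes 20 of 30 hosted a site (9.81 per Mb), led by Fmnl2, a formin, with 5, and all 3 sites of Palld, which encodes palladin, held SOX. Of the junction genes 18 of 28 did (10.98 per Mb), with 3 in Cdh1, which encodes E-cadherin, in 62.3 kb. Matrix and basement membrane genes (17 of 30, 9.57 per Mb) included Dst with 6 and Lama3, a chain gene of laminin 332, the anchor of basal keratinocytes, with 4.

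Among epidermal transcription factors 17 of 25 hosted a site (11.2 per Mb), with 6 in Cux1, 4 in Grhl2, of which 3 held AP-1 and none SOX, 4 in Runx2 and 3 in Trp63, which encodes p63. For TGF-beta genes it was 15 of 29 (10.4 per Mb), led by Ltbp1 with 8 and Tgfbr2 with 3, for EGF receptor and MAP kinase genes 12 of 30 (11.5 per Mb), led by Egfr with 4, and for Wnt genes 13 of 27 (10.2 per Mb), led by Ror1 with 4. Cornified envelope and late differentiation genes stood at the other end, with a site in 2 of 28, namely Spink5 with 2 and Tgm1 with 1. Their median intron length was only 2.20 kb, and per Mb of intron they held 12.5. All lists named here lay above the 6.52 per Mb of all genes. They also lay above the 7.08 to 9.06 per Mb of genes with 2 to 200 kb of intron. All but the cornified envelope list had a median intron length of at least 19.04 kb. For that list, with a median of 2.20 kb, the 12.5 per Mb rested on 3 sites in 2 genes. Genes with 2 to 5 kb of intron held 7.43 per Mb, and those with under 2 kb held 12.97.

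Of 29 genes that the study lists as direct targets, 13 hosted a site, at 11.6 per Mb. Because those genes were chosen by the study partly on these same peaks, their share is no independent evidence. The 12 besides Camta1 held 1 or 2 sites each. The site of Arhgef2, which encodes a microtubule-associated exchange factor, was among the earliest in the list, at row 2157 (chr3:88427602-88427859), and held 3 SOX matches and no AP-1. Those in Twist2 (chr1:93713329-93713586) and 1 of the 2 in Ror2 (chr13:53261082-53261339) held both motifs. The single sites of Farp1, Pxdn, Tmeff1, Rasgrp1 and Gm1673 each held 1 SOX match and no AP-1. The site in Lgals1, which encodes galectin 1, held AP-1 alone, and that of Gng2 and the 2 of Slco3a1 held neither. Chit1 held 2, of which 1 had a SOX match.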

How the data were processed

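The deposited files were peak lists with chromosome, start and end of each peak on mm9 and no score or signal column. The authors aligned reads with Bowtie2 to mm9, discarded non-nuclear, unmapped and low-quality reads, used Picard for duplicates and HOMER findPeaks (factor style) for peak calling, and subtracted blacklisted regions, making 1 list per factor from both replicates. Versions, control and thresholds are not given in the sources used here, nor is the meaning of the list order. Starts were read as 0-based and are printed 1-based.

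Peak centres were placed on the mm9 GENCODE M1 annotation, using all transcripts of protein-coding genes, in the order promoter, exon, intron. A SOX4 overlap needed 1 bp. Motifs were searched in the mm9 sequence of each peak, in windows of the same width 2 kb downstream, and in windows around intronic points every 5 kb. Shares have 95% Wilson intervals, and odds ratios 95% intervals from a normal approximation on the log scale. Differences were tested with two-sided Fisher's exact tests, with Benjamini-Hochberg adjustment over 20 motifs against the downstream windows and over 80 tests against 4 other groups of peaks, at a threshold of 0.05. Strand and side were tested with exact binomial tests and the ratio of odds ratios with a Woolf test, and odds ratios were pooled within bins of list position by the Mantel-Haenszel method. Peaks are not replicates, so p-values describe differences between sets of peaks in these lists. Python 3.11.15, numpy 2.4.6, scipy 1.17.1 and matplotlib 3.10.9 were used, and the scripts were tested on simulated data.

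The sites and the 13 gene lists were chosen with earlier results of these data known. Named were the sites at the edges of the rule and the earliest of each motif class, the 10 genes with most sites, the 5 densest, the introns with most sites, up to 4 genes with at least 3 sites per list, the listed direct targets and the leading 8-base words. Wwtr1, Pxn, Palld, Spink5, Tgm1 and the words of the sites with neither motif were named after their values were seen.
Of the lists, 1 is not reported here, nor are some genes that the rule names.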

Additional observations from a re-analysis of the deposited data

Results flagged for a closer look

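The odds ratio for a site to hold both the SOX and the AP-1 motif was 0.615 in the SOX11-only intronic sites and 1.14 in the intronic peaks shared with SOX4, and the ratio of the odds ratios was 0.541 (0.383 to 0.765, Woolf test, a large-sample and not an exact test, p = 0.000497). The result was picked out because the difference between the groups itself was tested. Of the 846 shared peaks, 438 came from the opening 10% of the list that the rule removed from the sites. Against the other 408 the ratio was 0.628 (0.395 to 1.001, same test, not exact, p = 0.0505). The odds ratio was 1.03 in the SOX11-only intronic peaks of the opening 10% and 0.730 in the SOX11-only peaks between genes. List position and sharing with SOX4 cannot be told apart in the ratio of 0.541.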

How the results depend on the processing

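Of 112 values recomputed under 17 alternative settings, 102 were unchanged by the measure that applied to them: odds ratios kept their direction and side of the threshold, shares stayed within their 95% interval, and numbers of sites and host genes, which have no error, stayed within 1.5 times. Some of these could not change, such as AP-1 values when only the SOX motif was altered. Of the rest, 9 moved, 1 lost its significance and none reversed. The ratio of odds ratios of the sites and the shared peaks, 0.541, became 0.628 (p = 0.0505, not an exact test) with late shared peaks only. The cause of the moves was not tested beyond how each setting was built. The SOX share of 34.9% became 32.9% for rows after the opening 20% of the list, 49.0% with longer motifs and 1 mismatch, 27.1% within 50 bp of the peak centre and 62.4% with the 6-base core. The AP-1 share of 34.4% became 37.2% with promoters of 1 kb to each side, 49.7% with the longer motif and 18.8% within 50 bp. The first intron share of 38.9% became 33.7% with the wider promoters and 49.9% when the first intron of any transcript counted. Odds ratios ranged from 2.32 to 8.56 for SOX and 3.97 to 11.96 for AP-1 against neighbouring windows, from 0.226 to 0.509 and 1.25 to 1.53 against shared peaks, and from 0.593 to 0.825 for both motifs together. Of the 17 settings, 13 were planned. The others (only transcripts typed as protein-coding, no hosts spanning over 1 Mb, late shared peaks only, pooling within bins of list position) were chosen after seeing the data. No paired analysis was possible because each factor has 1 peak list made from both replicates, so no replicate could be left out either. With no read counts, the depth behind a peak and the limit it sets are unknown.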

Other observations

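On the X chromosome the SOX11-only intronic sites held the SOX motif in 43.8% and AP-1 in 24.7% of 73 sites, and on the autosomes in 34.7% and 34.5% of 5892. The SOX11-only promoter peaks were also sparser on the X chromosome, at 8.80 per 100 protein-coding genes against 19.1 on the autosomes. These differences were not tested.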
